A study of Homo sapiens with 16 samples.

Results

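The 10 genes described here carry sulfur from homocysteine to cysteine, bring cystine into the cell, and make, recycle, use and break down glutathione: CBS, CTH, SLC7A11, GCLC, GCLM, GSS, GSR, CHAC1, CHAC2 and GPX4. They were chosen by symbol, and all 10 of 10 matched an Ensembl identifier among the 60676 in both deposited count tables and passed the filter on low counts. Total RNA was sequenced in 16 libraries of human melanoma cell lines, 8 of A101D, which the labels give as methionine dependent, and 8 of MeWo, given as methionine independent. Methionine independence means growth when homocysteine takes the place of methionine.

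Every culture medium, made with dialyzed serum, contained 150 µM cystine and 4 mM glutamine. Control medium held 200 µM methionine, which the other medium replaced with 200 µM homocysteine. No label ties either medium to a library. The replicate numbers fall into 1 to 4 and 5 to 8 in each line, and the labels give these numbers no meaning. That division was used with earlier results of these data known, so its p-values describe how far the libraries stand apart and are not independent support for a grouping. The labels do not say that libraries came from separate cultures, so p-values measure the spread between these samples, which may be technical. Each line is 1 cell line, so a difference between the lines is a difference between 2 lines and not between methionine dependence and independence as such.

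Transsulfuration is the route by which cells make cysteine from methionine. Cystathionine beta-synthase (CBS) joins homocysteine to serine, and cystathionine gamma-lyase (CTH) splits the product to give cysteine. Cells can also import cystine, the oxidised dimer of cysteine, through the exchanger xCT, whose transport subunit is SLC7A11 and whose anchoring subunit is SLC3A2. Glutathione, a cysteine-containing tripeptide, is then built by glutamate-cysteine ligase and glutathione synthetase, and it serves as the main low-molecular-weight thiol buffer against oxidants. In many cells ATF4, the transcription factor of the amino acid response, and NRF2, the transcription factor of the oxidant response, are known to act on SLC7A11, CHAC1 and the ligase genes.

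Short stretches near gene starts are shown because several members are known targets of ATF4 or NRF2, whose binding motifs can be searched for there. The RefSeq table (GRCh38.p14) held 300-base windows, from 250 bases before to 50 after an annotated start, for 7 of the 10 genes (12 windows), and SLC7A11, GSS and GSR had no entry. Both strands were searched for the core of the amino acid response element (TGATGNAA), the core of the antioxidant response element (TGACNNNGC), the cyclic AMP response element (TGACGTCA) and the E-box (CACGTG). None of these motifs overlapped another in these windows. Motifs were found in 3 of the 12 windows, and each is printed 5′ to 3′ on the strand of its gene with 10 bases on either side and the motif in capitals.
CHAC1 (chr15:40953252-40953279, plus strand, amino acid response element core in reverse): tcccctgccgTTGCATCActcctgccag
GCLM (chr1:93909446-93909474, minus strand, antioxidant response element core in reverse): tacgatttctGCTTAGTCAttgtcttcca
CBS (chr21:43076442-43076470, minus strand, antioxidant response element core in reverse): ccggctctggGCGCGGTCAcgcggggcgc

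The first motif base lies at -209 from the RefSeq start in CHAC1, at -34 in GCLM and at -83 in CBS. The CHAC1 motif falls inside a first exon of the longer transcripts CHAC1-201 and CHAC1-202 of GENCODE v29, 1 base of the GCLM motif falls inside an exon of GCLM-204, and the CBS motif lies in no annotated CBS exon. Of all 35116 windows of the table, 3.62% held the amino acid response element core, 13.4% the antioxidant response element core, 1.85% the cyclic AMP response element and 7.26% the E-box. A match describes these letters only. The windows of CTH, GCLC, CHAC2 and GPX4 and the other windows of CBS held none of these motifs. The share of all windows with any of these motifs was not computed, so the 3 of 12 windows have no background share beside them.

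Depth was similar across libraries, with 28910881 to 38961862 counts per A101D library and 31217443 to 38722489 per MeWo library. Levels are counts per 1000000 (CPM), with library sizes scaled by TMM factors (trimmed mean of M-values), which ran from 0.960 to 1.05. Melanocyte lineage markers summed to between 2872 and 3442 CPM in A101D replicates 1 to 4 and between 2529 and 2764 CPM in 5 to 8, without overlap, and to between 10236 and 11439 CPM across MeWo libraries, with none of the 8 at 0. In A101D the pigment enzymes TYR and TYRP1 stayed at or under 1.76 CPM, and MITF, SOX10, PMEL and MLANA were also lower there than in MeWo. DCT and S100B were higher in A101D, at 1260 to 1883 and 508 to 696 CPM against 422 to 555 and 121 to 138 CPM. The 5 fibroblast markers summed to between 912 and 1031 CPM in A101D replicates 1 to 4 and between 586 and 653 CPM in 5 to 8, nearly all of it COL1A2, against 75.6 to 85.3 CPM in MeWo. Single fibroblast markers did not all go with this sum. LUM was at least 68.5 CPM in every MeWo library and at most 2.47 CPM in any of A101D. DCN and COL1A1 were also higher in MeWo, while PDGFRA was higher in A101D, all at or under 4.92 CPM. The 3 endothelial markers, mostly VWF, summed to 3.74 to 4.77 and 15.3 to 19.9 CPM in the same A101D sets. These sums moved with the replicate numbers in A101D, and their part in the results below was not tested. The 3 keratinocyte and 4 leukocyte markers summed to at most 3.57 CPM in any library, and KRT1 was at 0 in every A101D library. In bulk RNA, fewer cells that express a gene and less RNA per cell cannot be told apart.

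The genes were tested with limma-voom over 19247 genes, with Benjamini-Hochberg adjustment and a threshold of 0.05. Between replicates 5 to 8 and 1 to 4 of A101D, 4 members rose (CBS, CTH, SLC7A11 and CHAC1), 3 fell (GSS, GSR and CHAC2), and GCLC, GCLM and GPX4 did not pass. Over all tested genes 68.0% passed in that comparison, 34.0% higher and 34.1% lower, so the share of members that passed, 7 of 10, is near the background. In MeWo, 3 members rose (CTH, CHAC1 and GPX4), 2 fell (GCLM and GSR) and 5 did not pass, where 15.6% of all tested genes passed, 7.20% higher and 8.42% lower. The MeWo split of calls over all genes depended on scaling: 46.1% of calls were higher with TMM factors, 35.2% with median-of-ratios factors and 66.7% on total counts. In A101D the replicate sets of 7 members did not overlap, against 62.3% of all tested genes, and in MeWo those of 7 members did not overlap, against 18.3%. The median log2 difference over the 10 members was -0.06 in A101D and 0.16 in MeWo, beside a median of 0.00 over all tested genes in each. CTH, CHAC1 and GSR passed in the same direction in both lines.

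**Figure D1:**
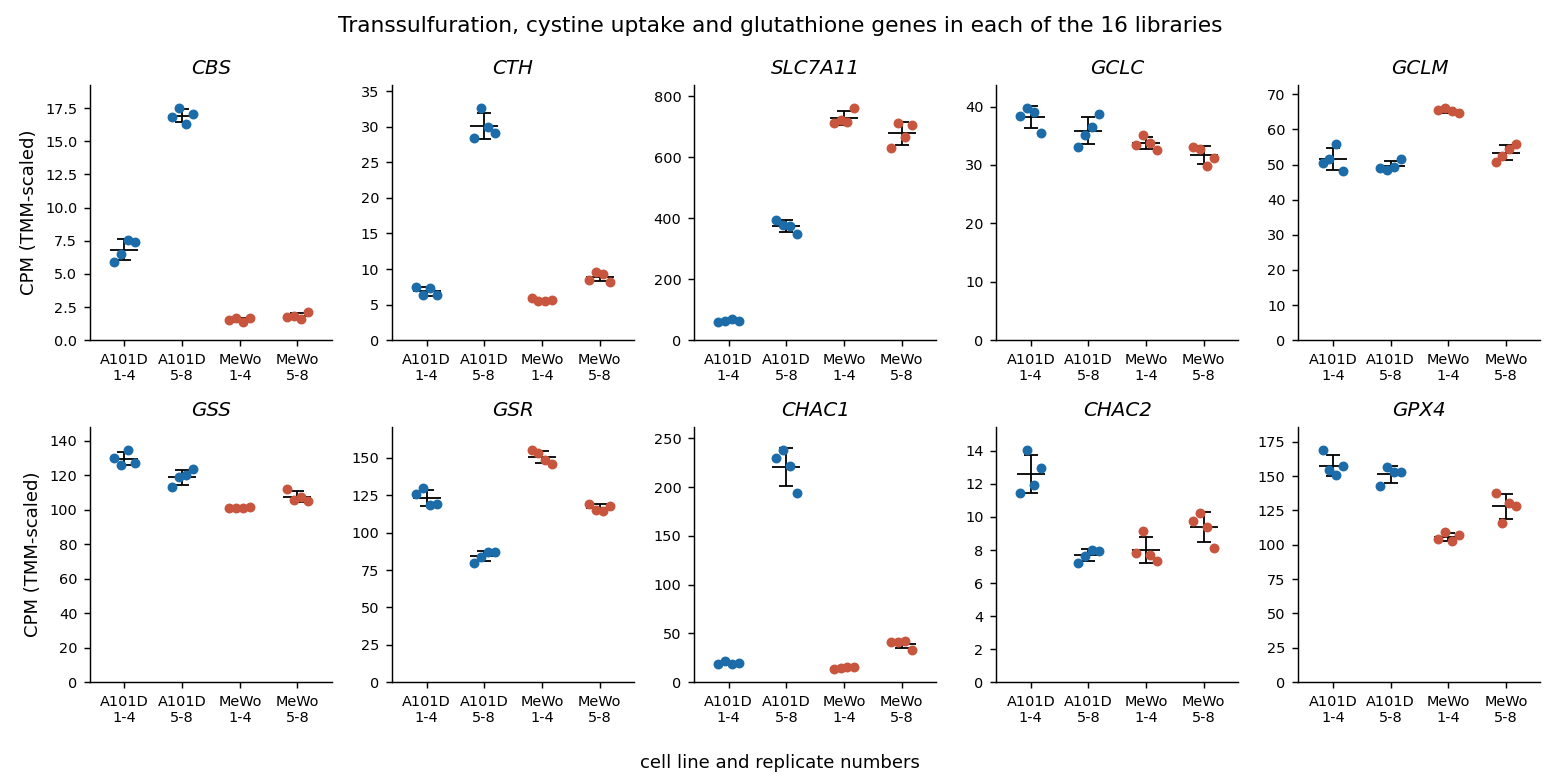
Level of each of the 10 genes in every library, in TMM-scaled CPM on a linear axis from 0, by cell line (A101D blue, MeWo red) and replicate numbers. Points are libraries, black bars the mean and SD of 4. SLC7A11 was lowest in A101D replicates 1 to 4 (59.8 to 68.8 CPM), and CHAC1 was highest in A101D replicates 5 to 8 (194 to 238 CPM).

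CBS, the entry enzyme of transsulfuration, was low in both lines and lower in MeWo. The A101D libraries held 5.86, 6.51, 7.55 and 7.41 CPM in replicates 1 to 4 and 16.8, 17.5, 16.3 and 17.0 CPM in 5 to 8. The MeWo libraries held 1.49, 1.67, 1.36 and 1.67 CPM, then 1.77, 1.84, 1.56 and 2.10 CPM, from 43 to 82 counts per library. The A101D sets are far apart and all above MeWo, while the MeWo sets overlap. In A101D CBS rose 2.51-fold (log2 1.33, SE 0.07, adjusted p = 2.38e-18). In MeWo the log2 difference was 0.23 (95% CI -0.10 to 0.56, adjusted p = 0.380). The difference between the lines in this change was -1.09 on the log2 scale (SE 0.18, adjusted p = 2.45e-06).

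CBS has a near-identical copy, CBSL, on the same chromosome. In GENCODE v29 (GRCh38), CBS lies at chr21:43053191-43076943 and CBSL at chr21:6444869-6468040, both on the minus strand. Of all 100-base windows of annotated CBS transcripts, 50.3% also occur in CBSL transcripts, and 83.5% of CBSL windows occur in CBS. CBSL itself was counted 8 to 49 times per library in A101D (0.249 to 1.30 CPM) and 2 to 9 times in MeWo (0.0597 to 0.257 CPM), too low for testing. How reads that fit both copies were assigned is not given in the sources used here, so the CBS level is uncertain. With the counts of both genes summed, an alternative chosen after seeing the data, the A101D change was 1.34 and the MeWo change 0.24 on the log2 scale.

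CTH, which completes transsulfuration, rose in both lines, and by more in A101D. Its gene lies at chr1:70411218-70439851 on the plus strand. CTH stood at 7.50, 6.39, 7.40 and 6.32 CPM in A101D replicates 1 to 4, and at 28.4, 32.6, 30.01 and 29.2 CPM in 5 to 8. In MeWo, replicates 1 to 4 gave 5.86, 5.49, 5.55 and 5.64 CPM, and replicates 5 to 8 gave 8.49, 9.57, 9.34 and 8.22 CPM. No library of one set overlapped the other in either line. The increase was 4.36-fold in A101D (log2 2.12, SE 0.07, adjusted p = 4.82e-25) and 1.57-fold in MeWo (log2 0.65, SE 0.09, adjusted p = 2.25e-06). The increases differed between the lines by -1.47 on the log2 scale (SE 0.12, adjusted p = 1.11e-13). The order of the 4 levels was A101D replicates 5 to 8, MeWo 5 to 8, A101D 1 to 4 and MeWo 1 to 4, with no overlap between neighbours.

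SLC7A11, the cystine-transporting subunit of xCT, was higher in MeWo than in A101D, and it rose between the replicate sets of A101D. Its gene lies at chr4:138164097-138242349 on the minus strand. Levels in A101D were 59.8, 62.3, 68.8 and 61.4 CPM in replicates 1 to 4 and 394, 377, 376 and 346 CPM in 5 to 8. Levels in MeWo were 713, 720.2, 716 and 760.5 CPM, then 629, 711, 664 and 706 CPM. Every MeWo library was above every A101D library, and all 4 MeWo libraries of replicates 5 to 8 were below the other 4. SLC7A11 rose 5.93-fold in A101D (log2 2.57, SE 0.05, adjusted p = 3.92e-30). In MeWo the log2 difference was -0.10 (95% CI -0.18 to -0.02, adjusted p = 0.0673). That value passed the threshold with median-of-ratios factors (-0.12, adjusted p = 0.0234) and without A101D replicate 3, 5, 6 or 8 or MeWo replicate 6 (adjusted p = 0.0237 to 0.0479), with a log2 difference between -0.10 and -0.13 each time. No A101D library enters this difference. Leaving any of them out changes it only through the genes tested, the scaling and the shared spread. The test of the difference between the lines gave -2.67 on the log2 scale (SE 0.06, adjusted p = 6.91e-27).

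The exons of SLC7A11 overlap those of an antisense gene, SLC7A11-AS1, over 8.97% of their bases. The strand setting of the counting is not given in the sources used here, so reads of both genes may not have been told apart there. SLC3A2, the heavy chain that anchors SLC7A11 in the membrane, averaged 258 ± 6.74 and 576 ± 39.6 CPM in the A101D sets, and 825 ± 9.53 and 825 ± 24.9 CPM in the MeWo sets (SD, n = 4). It rose by 1.16 on the log2 scale in A101D (SE 0.04, adjusted p = 6.66e-26), and the MeWo difference was 0.00 (adjusted p = 0.993). Per kilobase of exon, SLC7A11 amounted to 0.131 ± 0.00589 of SLC3A2 in A101D replicates 1 to 4 and 0.349 ± 0.00799 in replicates 5 to 8, against 0.473 ± 0.00957 and 0.442 ± 0.0377 in MeWo (SD, n = 4). The ranges of this ratio did not overlap between the A101D sets and did overlap between the MeWo sets.

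The genes of glutathione synthesis differed little between the replicate sets, by at most 0.29 on the log2 scale. GCLC, the catalytic subunit of glutamate-cysteine ligase, lay between 35.5 and 39.7 CPM in replicates 1 to 4 of A101D and between 33.1 and 38.7 CPM in 5 to 8. In MeWo it lay between 32.6 and 35.2 CPM, then between 29.8 and 33.1 CPM. Both pairs overlapped, with a log2 difference of -0.09 in A101D (95% CI -0.19 to 0.01, adjusted p = 0.0977) and -0.09 in MeWo (95% CI -0.19 to 0.01, adjusted p = 0.235). The A101D value passed without A101D replicate 4 or 8 (-0.12 each, adjusted p = 0.0324 and 0.0293). GCLC was the only member whose difference between the replicate sets was not called different between the lines (0.00, 95% CI -0.14 to 0.14, adjusted p = 0.986). Its exons overlap those of the long non-coding gene AL033397.1 over 6.12% of their bases.

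GCLM, the modifier subunit of the ligase, fell in MeWo. Its libraries there held 65.7, 66.1, 65.2 and 64.7 CPM in replicates 1 to 4 and 50.9, 52.5, 54.5 and 55.9 CPM in 5 to 8, with no overlap. A101D libraries ran from 48.2 to 56.0 CPM in replicates 1 to 4 and from 48.5 to 51.5 CPM in 5 to 8. GCLM fell by 0.29 on the log2 scale in MeWo (SE 0.04, adjusted p = 2.99e-06), and its A101D difference was -0.05 (adjusted p = 0.284). The difference between the lines was -0.24 (SE 0.06, adjusted p = 0.000647). Of the 2 genes printed above with the antioxidant response element core, CBS rose in A101D and GCLM did not pass there. In MeWo CBS did not pass and GCLM fell, and a link to the motif was not tested. Per kilobase of exon, GCLC amounted to 0.465 and 0.453 of GCLM in the A101D sets and 0.324 and 0.373 in the MeWo sets.

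GSS, glutathione synthetase, catalyses the last step of synthesis. GSS stood at 130.1, 126, 135 and 127 CPM in A101D replicates 1 to 4, and at 113, 119, 119.9 and 123 CPM in 5 to 8. In MeWo it stood at 101.03, 101.01, 100.7 and 101.5 CPM, then at 112, 105, 108 and 105 CPM. The sets did not overlap in either line and lay in opposite directions. GSS fell by 0.12 on the log2 scale in A101D (SE 0.03, adjusted p = 0.00159), a call that was lost on total counts (-0.04, adjusted p = 0.277) and without A101D replicate 5 (-0.08, adjusted p = 0.0551). In MeWo the difference was 0.09 (SE 0.03, adjusted p = 0.0852), which passed with upper-quartile factors, on total counts and with a filter at 1 CPM (0.09 to 0.12, adjusted p = 0.00817 to 0.0463). The difference between the lines was 0.21 (SE 0.05, adjusted p = 0.000350).

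GSR, the reductase that regenerates glutathione from its disulfide, fell in both lines. In A101D, replicates 1 to 4 gave 126, 129.7, 118 and 119 CPM, and replicates 5 to 8 gave 79.5, 83.9, 86.9 and 87.2 CPM. The MeWo libraries gave 155, 153, 149 and 146 CPM, then 119, 115, 114 and 118 CPM. Neither pair of sets overlapped. GSR fell by 0.55 on the log2 scale in A101D (SE 0.04, adjusted p = 6.65e-16) and by 0.37 in MeWo (SE 0.04, adjusted p = 2.89e-09). The lines differed by 0.18 in this change (SE 0.05, adjusted p = 0.00389), a call lost without A101D replicate 5 (0.12, adjusted p = 0.0657).

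GPX4, the selenoprotein that uses glutathione to reduce lipid hydroperoxides and is known as a brake on ferroptosis, rose in MeWo. Levels in MeWo were 104, 109, 102 and 107 CPM in replicates 1 to 4 and 138, 115, 130.02 and 128 CPM in 5 to 8. A101D libraries ran from 150.4 to 169 CPM in replicates 1 to 4 and from 143 to 156 CPM in 5 to 8. The MeWo sets did not overlap and the A101D sets did. The increase was 1.21-fold in MeWo (log2 0.27, SE 0.04, adjusted p = 2.40e-05), and the A101D difference was -0.06 (95% CI -0.15 to 0.02, adjusted p = 0.189). The lines differed by 0.33 on the log2 scale (SE 0.06, adjusted p = 1.11e-05).

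CHAC1, a gamma-glutamylcyclotransferase that breaks down glutathione and is known as a target of ATF4, had the largest change of the 10 genes in A101D. Its gene lies at chr15:40952962-40956519 on the plus strand. A101D replicates 1 to 4 gave 19.0, 21.3, 18.2 and 19.2 CPM, and replicates 5 to 8 gave 229, 238, 222 and 194 CPM. The MeWo libraries gave 13.7, 14.96, 15.4 and 15.3 CPM, then 41.3, 40.6, 41.8 and 32.6 CPM. The sets are apart in both lines. The increase was 11.3-fold in A101D (log2 3.50, SE 0.08, adjusted p = 4.08e-18) and 2.62-fold in MeWo (log2 1.39, SE 0.10, adjusted p = 2.54e-08). It differed between the lines by -2.11 on the log2 scale (SE 0.13, adjusted p = 4.26e-11). The level was highest in A101D replicates 5 to 8, then MeWo 5 to 8, A101D 1 to 4 and MeWo 1 to 4, with no overlap between neighbours.

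CHAC2, the paralog known for slower and steadier turnover of glutathione, did not follow CHAC1. A101D replicates 1 to 4 gave 11.5, 14.1, 11.9 and 13.0 CPM, and replicates 5 to 8 gave 7.23, 7.63, 7.99 and 7.92 CPM. The MeWo libraries gave 7.84, 9.15, 7.70 and 7.34 CPM, then 9.78, 10.3, 9.40 and 8.14 CPM. The A101D sets did not overlap and the MeWo sets did. CHAC2 fell by 0.70 on the log2 scale in A101D (SE 0.08, adjusted p = 9.87e-10). In MeWo the difference was 0.23 (SE 0.09, adjusted p = 0.0702), and it passed on total counts (0.26, adjusted p = 0.0333) and without MeWo replicate 2 or 8 (0.29 and 0.30, adjusted p = 0.0329 and 0.0201). The lines differed by 0.93 (SE 0.12, adjusted p = 1.77e-08). Per kilobase of exon, CHAC1 stood at 0.991 ± 0.0504 of CHAC2 in A101D replicates 1 to 4 and at 18.5 ± 2.18 in 5 to 8, and at 1.20 ± 0.134 and 2.67 ± 0.145 in the MeWo sets (SD, n = 4).

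**Figure D2:**
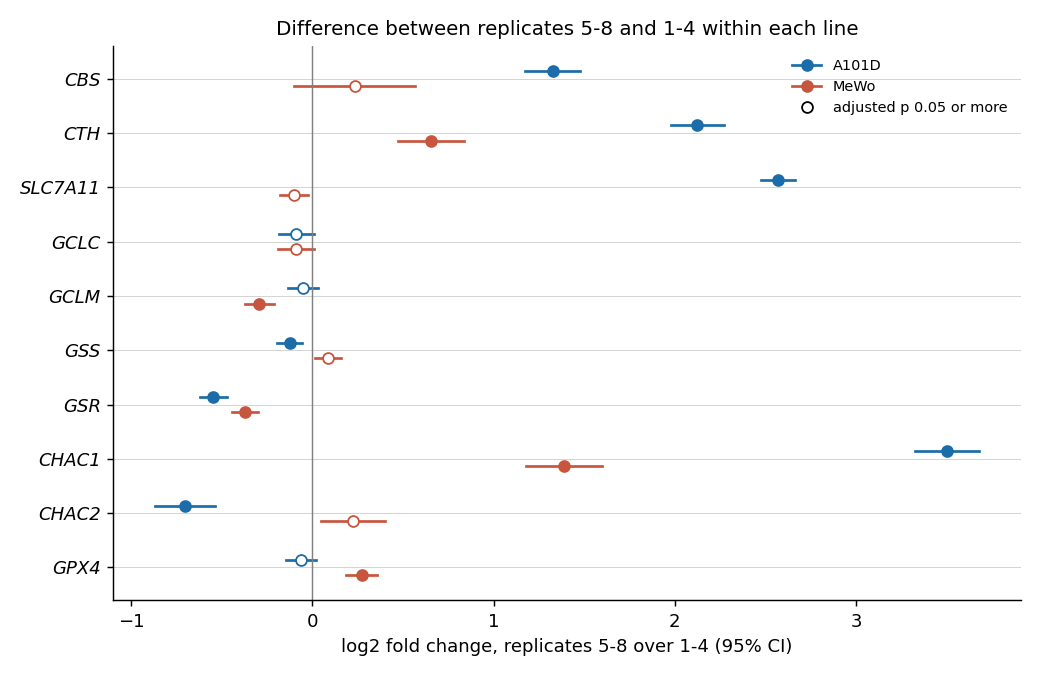
Log2 fold change of replicates 5 to 8 over 1 to 4 for the 10 genes in A101D (blue) and MeWo (red), with 95% confidence intervals from limma-voom. Open circles have an adjusted p of 0.05 or more. The blue intervals of CBS, CTH, SLC7A11 and CHAC1 lie above the red ones, and those of CHAC2 lie on opposite sides of 0.

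Across the 10 genes, the difference between the replicate sets was itself different between the lines for 9, with 4 higher and 5 lower in MeWo than in A101D, where 52.8% of all tested genes passed. The 4 members that rose in A101D all had negative values in this test, from -1.09 for CBS to -2.67 for SLC7A11. GSS, GSR, CHAC2 and GPX4 had positive values, from 0.18 to 0.93. Mitochondrial genes took a share of A101D counts that ran from 1.71 to 1.92% in replicates 1 to 4 and from 1.93 to 2.33% in 5 to 8, against 1.28 to 1.45% in all MeWo libraries, and its part in these differences was not tested.

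The comparison of the lines asks how A101D and MeWo differ whatever the replicate set. Over all 16 libraries, MeWo was higher than A101D in SLC7A11, GCLM and GSR and lower in CBS, CTH, GCLC, GSS and GPX4, while CHAC1 and CHAC2 did not pass. Over all genes 79.0% passed this test, 38.5% higher and 40.5% lower, so the share of members that passed, 8 of 10, is near the background. In 4 members (CBS, SLC7A11, GSS and GPX4) the 8 libraries of each line did not overlap, against 57.7% of all tested genes. SLC7A11 lay between 59.8 and 394 CPM in A101D libraries (median 208) and between 629 and 760.5 CPM in MeWo libraries (median 712), a 4.57-fold difference (log2 2.19, SE 0.44, adjusted p = 0.000209). CBS lay between 5.86 and 17.5 CPM in A101D libraries (median 11.9) and between 1.36 and 2.10 CPM in MeWo libraries (median 1.67), 6.39-fold lower in MeWo (log2 -2.68, SE 0.33, adjusted p = 8.06e-07). CTH was lower in MeWo by a log2 value of -1.03 (SE 0.42, adjusted p = 0.0341). That call was lost with no filter on low counts (adjusted p = 0.0550) and without MeWo replicate 2 (-0.97, adjusted p = 0.0598). Leaving out any other library was not tried here, so dependence on the rest is unknown. MeWo replicate 2 detected 34471 genes, and no further library of that line exceeded 31433. The other members that passed differed by -0.41 to 0.38. For CHAC1 the log2 difference was -1.45 (95% CI -2.93 to 0.03, adjusted p = 0.0681), and for CHAC2 it was -0.18 (95% CI -0.49 to 0.13, adjusted p = 0.263). This fit has 1 mean per line and leaves the replicate sets in its spread. As the average of the differences within both sets, CHAC1 (-1.45, adjusted p = 3.48e-14) and CHAC2 (-0.19, adjusted p = 0.00368) passed, and CHAC1 also passed with the replicate number as a block (-1.76, adjusted p = 0.000514).

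Compared within each replicate set, all 10 members differed between the lines in both sets. Over all genes 81.5% passed in replicates 1 to 4 and 85.3% in 5 to 8. In replicates 1 to 4, SLC7A11 was 11.6-fold higher in MeWo (log2 3.53, SE 0.05), CBS was lower by -2.12 (SE 0.14), and the other 8 members differed by -0.65 to 0.35. In replicates 5 to 8, SLC7A11 was 1.82-fold higher in MeWo (log2 0.86, SE 0.04), while CBS was 9.25-fold, CHAC1 5.67-fold and CTH 3.38-fold lower. CHAC2 changed sides, at -0.65 (SE 0.08) in replicates 1 to 4 and 0.28 (SE 0.09) in 5 to 8. GCLM was higher in MeWo by 0.35 in replicates 1 to 4 and by 0.11 in 5 to 8 (adjusted p = 0.0163). The latter call was lost on total counts (0.07, adjusted p = 0.101). It was also lost without any of the 8 A101D replicates (0.05 to 0.09, adjusted p = 0.0655 to 0.316). Each of those fits was filtered and scaled anew, on 17923 to 17992 genes in place of 19247, and the part of this was not tested. CHAC1 in replicates 1 to 4 was lower by -0.39 (adjusted p = 0.00299), a call lost with no filter on low counts (-0.42, adjusted p = 0.0761).

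**Figure D3:**
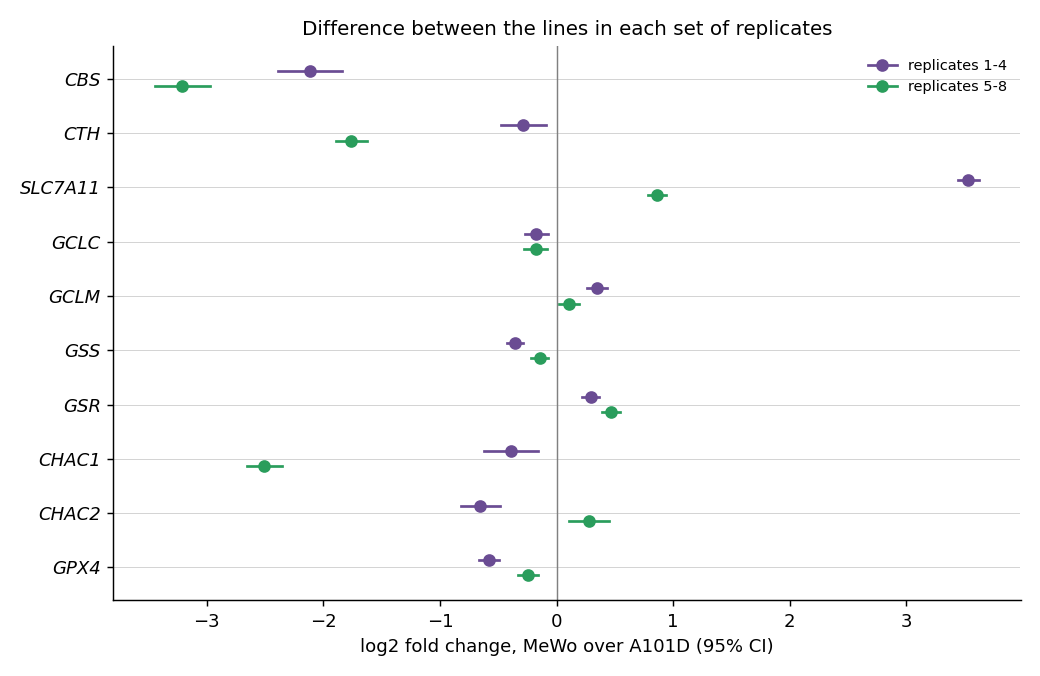
Log2 fold change of MeWo over A101D for the 10 genes in replicates 1 to 4 (purple) and 5 to 8 (green), with 95% confidence intervals from limma-voom. SLC7A11 goes from 3.53 to 0.86, CHAC1 from -0.39 to -2.50, and CHAC2 lies on opposite sides of 0.

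Compared per length, as CPM per kilobase of annotated exon, the members covered a wide range of levels. In A101D replicates 1 to 4, GPX4 (78.1 ± 3.95), GSR (32.8 ± 1.47) and GSS (21.0 ± 0.613) were highest, and CBS (1.01 ± 0.117) was lowest. In A101D replicates 5 to 8, CHAC1 (107 ± 9.36) was above GPX4 (74.8 ± 2.95) and SLC7A11 (38.7 ± 2.06). In MeWo, SLC7A11 led with 75.4 ± 2.32 and 70.3 ± 4.01 in the 2 sets, followed by GPX4 with 52.3 ± 1.41 and 63.3 ± 4.56, and CBS was lowest with 0.228 ± 0.0223 and 0.268 ± 0.0327 (SD, n = 4). The per-length ratio of CBS to CTH was 0.355 and 0.201 in the A101D sets and 0.0979 and 0.0732 in the MeWo sets. Sequence shared with CBSL leaves the CBS values and this ratio uncertain.

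As a description over the 16 libraries, which share 2 lines and 2 replicate sets, CTH and CHAC1 had the closest profiles among the members (Pearson r = 0.989 on log2 CPM), and both ran opposite to GSR (r = -0.953 and -0.955). Among the 10138 other genes with a symbol and a mean of at least 10 CPM, the profile most like SLC7A11 was that of RASAL2 (r = 0.997), followed by SYNE1 (0.996) and SLC3A2 (0.996). RASAL2 had 61.7, 96.0, 116 and 116 CPM in A101D replicates 1 to 4, A101D 5 to 8, MeWo 1 to 4 and MeWo 5 to 8. CHAC1 was closest to ARHGEF2 (0.992), TNFAIP3 (0.991) and MID1IP1 (0.990), CTH to TUBE1 (0.995), TRIM13 (0.992) and KRT10-AS1 (0.991), and CBS to SEMA3C (0.997), TLR4 (0.996) and TIGAR (0.996).

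Of the 18 tested genes of the ATF4 pathway list, 13 rose, 3 fell and 2 did not pass in A101D (median log2 1.68), where 34.0% of all tested genes were called higher. In MeWo 13 rose, 1 fell and 4 did not pass (median 0.38), where 7.20% of all tested genes were called higher. The median over all tested genes was 0.00 in each line. ATF4 itself averaged 318 ± 9.92 and 809.8 ± 16.4 CPM in the A101D sets, and 324 ± 3.28 and 537 ± 23.1 CPM in the MeWo sets (SD, n = 4), a log2 increase of 1.35 and 0.73. CEBPG, a partner of ATF4, rose by 2.72 and 0.60, NUPR1, a stress-induced chromatin protein, by 2.50 and 0.42, and TRIB3, a pseudokinase that dampens ATF4 signalling, by 2.44 and 0.65. SESN2, a sestrin that restrains mTORC1, rose by 1.78 and 0.65, and ATF3 by 1.12 and 0.33. The 3 genes of the list that fell in A101D were EIF2AK2 (-0.34), EIF2AK3 (-0.52) and EIF2AK4 (-0.32), kinases of eIF2 alpha that act upstream of ATF4, and EIF2AK4 (-0.15) was the 1 that fell in MeWo. These kinases were named after their values were seen. Between the lines, the ATF4 list's changes were lower in MeWo for 13 of 18 and higher for 3, where 52.8% of all tested genes passed.

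The list of NRF2 regulators and targets had opposite medians in the 2 lines. In A101D 11 of 18 rose, 5 fell and 2 did not pass (median log2 0.32). In MeWo 1 rose, 11 fell and 6 did not pass (median -0.15). Over all tested genes 34.0% were called higher and 34.1% lower in A101D, and 7.20% and 8.42% in MeWo. NFE2L2, which encodes NRF2, rose by 0.48 in A101D (SE 0.03) and differed by 0.05 in MeWo (adjusted p = 0.420). KEAP1, its repressor, rose by 0.41 in A101D and differed by 0.00 in MeWo (adjusted p = 0.963). TXNRD1, the cytosolic thioredoxin reductase, rose by 0.71 in A101D and fell by 0.28 in MeWo, and HMOX1, heme oxygenase, rose by 0.72 and fell by 0.33. MAFF, a small MAF partner, rose in both (1.05 and 0.27), while the pentose phosphate enzyme TKT fell by 0.85 in A101D and OSGIN1 by 0.29 in MeWo. The change differed between the lines for 16 of the 18, 3 higher and 13 lower in MeWo, where 52.8% of all tested genes passed.

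Other genes of sulfur amino acid metabolism were led by MAT2A, which makes S-adenosylmethionine. It averaged 137 ± 3.47 and 618 ± 7.73 CPM in the A101D sets, and 184 ± 8.10 and 653 ± 23.2 CPM in the MeWo sets (SD, n = 4), a log2 increase of 2.17 and 1.82. Of 15 tested in this list of 19, 4 rose, 6 fell and 5 did not pass in A101D (median -0.09), where 68.0% of all tested genes passed. In MeWo 3 rose, none fell and 12 did not pass (median 0.11), where 15.6% of all tested genes passed. GOT1, the aspartate transaminase that also acts on cysteine sulfinate, rose by 1.36 in A101D. Between the lines, SQOR, which oxidises hydrogen sulfide in mitochondria, was lower in MeWo by -3.36 (SE 0.18), and MPST, which makes sulfane sulfur from mercaptopyruvate, was higher by 3.03 (SE 0.09). MPST lay between 4.64 and 7.66 CPM in A101D libraries and between 47.1 and 53.7 CPM in MeWo libraries, with no overlap.

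In the transport list, 5 of 12 tested genes rose and 6 fell in A101D, and none rose and 4 fell in MeWo (medians -0.12 and -0.08). The share of all tested genes that passed was 68.0% in A101D and 15.6% in MeWo. MFSD12, the importer of cysteine into melanosomes and lysosomes, fell by 0.73 in A101D and by 0.24 in MeWo, and was higher in MeWo than in A101D by 1.42 (SE 0.14). The glutamate and aspartate transporter SLC1A3 fell by 0.35 in MeWo and was lower there than in A101D by -1.86 (SE 0.09).

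Of 27 tested genes for glutathione breakdown and glutathione-dependent enzymes, 4 rose and 15 fell in A101D (median -0.16). In MeWo 2 rose and 4 fell (median 0.02). Over all tested genes 34.0% were called higher and 34.1% lower in A101D, and 7.20% and 8.42% in MeWo. GGCT, a cyclotransferase that acts on gamma-glutamyl amino acids, fell by 1.47 in A101D, from 60.9 ± 0.808 to 22.0 ± 1.91 CPM (SD, n = 4). GSTZ1, a glutathione transferase of tyrosine breakdown, fell by 1.28 in A101D. Between the lines, GPX3, the secreted glutathione peroxidase, was lower in MeWo by -5.86 (SE 0.10), and OPLAH, which recovers glutamate from 5-oxoproline, by -3.75 (SE 0.08). Of the 12 thioredoxin and peroxiredoxin genes, 2 rose (TXNIP by 1.19 and TXNRD1) and 8 fell in A101D (median -0.21). In MeWo 2 rose and 4 fell (median -0.03). Of all tested genes, 68.0% passed in A101D and 15.6% in MeWo. The mitochondrial reductase TXNRD2 was lower in MeWo by -1.98 (SE 0.06), and thioredoxin itself (TXN) was higher by 1.13 (SE 0.09).

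Selenoprotein synthesis genes, which GPX4 needs, rose for 4 of 7 and fell for 2 in A101D, and rose for 3 of 7 in MeWo (medians 0.11 in each). SEPHS2, which makes the selenium donor, rose by 0.81 in A101D, and SEPSECS, which forms selenocysteine on its transfer RNA, rose by 0.51 in A101D and 0.31 in MeWo. Of 12 tested genes for ferroptosis and iron, 4 rose and 5 fell in A101D, and none rose and 3 fell in MeWo (medians -0.13 and -0.08). Beside the counts of both lists, 68.0% of all tested genes passed in A101D and 15.6% in MeWo. TFRC, the transferrin receptor, fell by 2.03 in A101D, from 714 ± 48.0 to 175 ± 22.7 CPM, and by 0.28 in MeWo, from 414 ± 22.8 to 340 ± 7.77 CPM (SD, n = 4). The ferritin genes FTH1 and FTL were higher in MeWo than in A101D by 1.71 (SE 0.11) and 1.15 (SE 0.09).

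**Figure D4:**
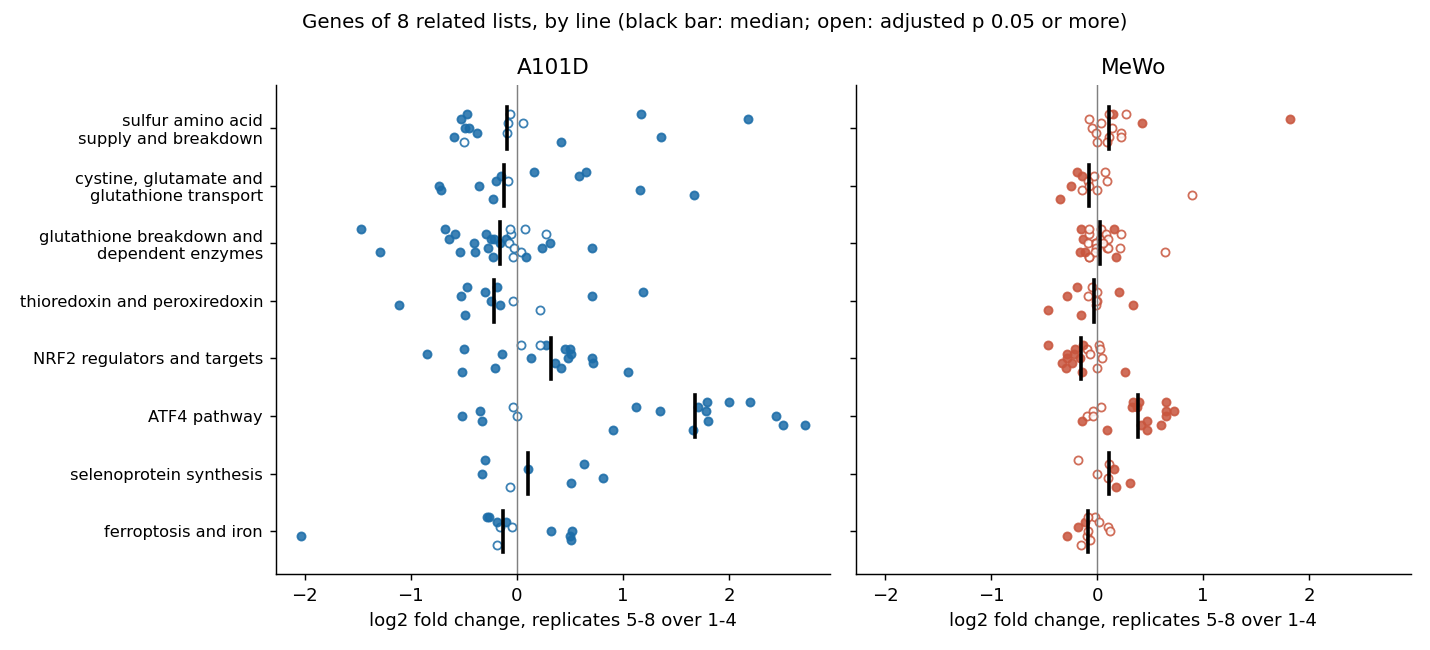
Log2 fold change of replicates 5 to 8 over 1 to 4 for the tested genes of 8 related lists in A101D (left, blue) and MeWo (right, red). Filled points passed the threshold, open points did not, and black bars are list medians. The ATF4 list stands at a median of 1.68 in A101D and 0.38 in MeWo, and the NRF2 list at 0.32 and -0.15.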

How the data were processed

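The authors deposited 1 table per line in which each cell joins an Ensembl identifier and a whole-number count per gene (an other, mixed format), and both parts were separated before use. Per the submitters' processing notes, Trimmomatic 0.39-1, STAR 2.7.1a and featureCounts 2.0.0 were used with GRCh38, and per the labels' protocols the kit marked strand. The annotation release and strand setting of the counting are not stated there. Symbols came from a gene name table (42009 identifiers matched) and GENCODE v29, which also gave positions and exon lengths (58503 matched).

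A gene was tested with at least 0.298 CPM (10 counts at the median depth) in 8 libraries and 15 counts in all. TMM factors were computed on these genes with trims of 30% and 5%, and limma 3.58.1 in R 4.3.3 was run with voom weights and robust moderation. The lines were compared in a fit with 1 mean per line, and all other contrasts came from a fit with 4 means (line by replicates 1 to 4 or 5 to 8). A quasi-likelihood count test was planned only for columns that pass as counts, and these do not. The fit was tested on simulated data. Pairs of libraries of 1 set differed by more than sampling noise (chi-square per degree of freedom at least 1.86).

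The members and lists were chosen with earlier results of these data known. Beside the members, CBSL, ATF4, NFE2L2, KEAP1, SLC3A2 and TXNRD1, the naming rule took up to 2 genes per list and contrast (line, A101D sets, MeWo sets) with the largest change among those past the threshold at a mean of at least 10 CPM, and the 3 most similar profiles (log2 CPM, prior count 2) for SLC7A11, CHAC1, CTH and CBS.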

Additional observations from a re-analysis of the deposited data

Results flagged for a closer look

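The difference between replicates 5 to 8 and 1 to 4 differed between MeWo and A101D in 9 members by the interaction test in limma. Of all tested genes, 52.8% passed that test. The log2 values, MeWo minus A101D, were -1.09 for CBS, -1.47 for CTH, -2.67 for SLC7A11, -0.24 for GCLM, 0.21 for GSS, 0.18 for GSR, -2.11 for CHAC1, 0.93 for CHAC2 and 0.33 for GPX4. The value for GSR lost its call without A101D replicate 5 (0.12, adjusted p = 0.0657).

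Among 60 groups of libraries checked for a sample far from the others, 3 stood out, and chance gives about 1 in 20, or 3. SLC7A11 in MeWo replicate 4 was at 760 CPM, while the other libraries of replicates 1 to 4 were at 713 to 720 CPM. GCLM in A101D replicate 3 was at 56.0 CPM, with the other 7 A101D libraries at 48.2 to 51.6 CPM. CHAC1 in MeWo replicate 8 was at 32.6 CPM, with the other libraries of replicates 5 to 8 at 40.6 to 41.8 CPM.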

How the results depend on the processing

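The numbers of members called stayed within 1.5 times of the reported ones in all 131 recomputed counts. These covered median-of-ratios, upper-quartile and total-count scaling, no filter, a filter at 1 CPM, limma-trend, a threshold of 0.01, and CBS summed with CBSL. Each library was left out in turn only for the contrasts of the 4-mean fit. Those fits were filtered and scaled anew, on 17923 to 18767 genes in place of 19247. For the comparison of the lines over all 16 libraries, MeWo replicate 2 alone was left out. The replicate block and the average of both sets were added there. Of the single member values, 1273 kept their side of the threshold, 17 lost it and 20 gained it, and no called value changed sign. Over all genes, the MeWo comparison of replicate sets called 3005, but 1892 with no filter and 1634 at a threshold of 0.01. With the average of both line differences in the 4-mean fit, CHAC1 (-1.45, adjusted p = 3.5e-14) and CHAC2 (-0.19, adjusted p = 0.00368) passed in the line comparison. Without the filter, GCLC, GCLM and GPX4 passed in A101D (-0.17, -0.13 and -0.14, against -0.09, -0.05 and -0.06 with it). The median over all genes tested in that comparison was -0.06 without the filter and 0.00 with it. The causes were not tested. Quasi-likelihood and Wald count tests were not run.

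Samples of the 2 lines with the same replicate number were compared. Deviations from the line means correlated over 0.1 in 7 of 8 pairs, and in 0 of 8 after the means of line and set were removed (highest 0.0931). The cut at 0.1 is not a test, so it cannot decide whether the numbers pair the samples. Of 16 samples, 4 and 6 correlated best with their own number. With the replicate number as a block, 9 of 10 members passed in the line comparison in place of 8, with CHAC1 at -1.76 (adjusted p = 0.000514). Over all 19247 tested genes, 15327 passed with the block and 15207 without it. CBS in MeWo rests on 43 to 82 counts per library, which limits its precision.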
